A study of Mus musculus with 6 samples.

Results

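Glucose transporters and hexokinases are the proteins through which a cell takes up glucose and keeps it. The genes described here are 10 mouse genes, chosen by symbol: the transporters Slc2a1, Slc2a3, Slc2a4, Slc2a5, Slc2a8, Slc2a10 and Slc2a12 and the hexokinases Hk1, Hk2 and Hk3. They have 20 of the 45037 probe sets on the array that do not serve as controls, and all 10 genes are on it. Interscapular brown fat, the heat-producing fat between the shoulder blades, was compared with epididymal white fat, the storage depot beside the testis. The tissues came from 3 male C57BL/6 mice of 10 to 12 weeks of age, all untreated and kept at ambient temperature. Each tissue gave 3 samples, and each sample had its own Affymetrix array. The type of fat and its place in the body cannot be told apart in this design.

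Facilitative glucose transporters let sugar cross the cell membrane down its gradient. In fat and muscle the insulin-responsive form GLUT4, encoded by Slc2a4, waits in vesicles inside the cell and moves to the surface when insulin or, in brown fat, other signals call for glucose. Hexokinases then add a phosphate group, which traps the sugar in the cell as glucose-6-phosphate and starts its way into glycolysis, glycogen or the pentose phosphate pathway. The members include the broadly expressed forms GLUT1 (Slc2a1) and hexokinase 1 (Hk1), the forms typical of insulin-responsive tissue (Slc2a4 and Hk2), forms known from neurons and white blood cells (Slc2a3 and Hk3), the fructose transporter GLUT5 (Slc2a5) and the less studied transporters GLUT8, GLUT10 and GLUT12.

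The sequences before the start sites of 4 members whose signal differed between the tissues are shown so that their letters can be set beside the directions reported below. They are the 250 bases before the start in RefSeq (build GRCm38.p6), 5′ to 3′ on the gene's strand. Of the 10 members, 8 matched this table, with 9 start sites. Slc2a5 (chr4:150119094-150119343, plus strand) and Hk2 (chr6:82774455-82774704, minus strand) were higher in brown, and Slc2a1 (chr4:119108495-119108744, plus strand) and Slc2a10 (chr2:165503647-165503896, plus strand) were higher in white. Capitals mark matches, on either strand, to any of the 7 motifs named after the sequences.
Hk2: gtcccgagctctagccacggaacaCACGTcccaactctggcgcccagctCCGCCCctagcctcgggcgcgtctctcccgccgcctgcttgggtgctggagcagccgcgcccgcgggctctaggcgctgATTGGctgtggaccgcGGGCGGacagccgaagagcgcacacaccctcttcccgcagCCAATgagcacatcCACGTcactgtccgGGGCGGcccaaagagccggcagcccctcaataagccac
Slc2a5: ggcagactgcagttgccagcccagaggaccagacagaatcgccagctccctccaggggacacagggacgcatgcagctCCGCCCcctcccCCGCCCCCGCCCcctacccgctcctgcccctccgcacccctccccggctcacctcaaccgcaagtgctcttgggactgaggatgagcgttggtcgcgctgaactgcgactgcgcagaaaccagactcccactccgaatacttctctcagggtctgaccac
Slc2a1: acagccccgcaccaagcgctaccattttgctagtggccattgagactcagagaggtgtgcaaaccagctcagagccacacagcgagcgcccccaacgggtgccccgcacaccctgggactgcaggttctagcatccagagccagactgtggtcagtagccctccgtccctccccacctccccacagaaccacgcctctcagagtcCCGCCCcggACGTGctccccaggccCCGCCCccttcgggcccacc
Slc2a10: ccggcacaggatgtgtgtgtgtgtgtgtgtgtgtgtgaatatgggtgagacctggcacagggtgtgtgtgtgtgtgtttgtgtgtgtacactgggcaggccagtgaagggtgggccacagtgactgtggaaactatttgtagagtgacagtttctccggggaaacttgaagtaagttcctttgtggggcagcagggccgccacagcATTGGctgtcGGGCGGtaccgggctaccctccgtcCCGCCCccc
The GC box GGGCGG, the letters that Sp1 family factors bind, was found 3 times before Hk2, 3 times before Slc2a5, 2 times before Slc2a1 and 2 times before Slc2a10. It lies in 32.7% of the 32851 RefSeq windows of the same length, so these matches are shared with many promoters. The core ACGTG of hypoxia response elements was found 2 times before Hk2 and 1 time before Slc2a1 (16.6% of all windows). CCAAT was found 2 times before Hk2 and 1 time before Slc2a10 (33.8% of all windows). Of the 9 member windows, the GC box lay in 4, ACGTG in 3 and CCAAT in 3. Among windows not printed, CCAAT was found 4 times before Slc2a8, which was not called, and ACGTG 1 time before Hk3, which was not tested. No match was found in the 9 member windows to the E box CACGTG, which contains ACGTG (6.02% of all windows), the cAMP response element TGACGTCA (1.55%), the TATA box TATAAA (12.4%) or the nuclear receptor half-site AGGTCA (14%). The GC box, ACGTG and CCAAT each stand before members of both directions.

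Signals below are intensities after quantile normalisation, which gives all arrays the same distribution of values. A probe set is a group of short probes for 1 transcript region, and the array software calls it present, marginal or absent. The test, limma, took in every probe set with 3 or more present calls among the 6 arrays, and a gene is described as higher in one tissue where its Benjamini-Hochberg adjusted p over all 19819 tested probe sets was under 0.05. A probe set present in 1 tissue alone could thus pass through the tissue where it was high. Slc2a5, the dimmer tested probe set of Slc2a3, Slc2a13, Slc45a3, Myc and Pea15a are among these. Their p-values are to be read with that limit. All differences are brown minus white on the log2 scale, and the standard error is written SE. Each gene is read by its tested probe set with the highest mean signal, and its other probe sets are given beside it.

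The labels were checked on Ucp1, the heat-producing uncoupling protein, with signals of 12942 ± 267 in brown and 26.1 ± 31.7 in white (SD, n = 3), and on leptin, Lep, with 54.2 ± 19.2 and 1743 ± 16.5 (SD, n = 3). Brown arrays had 35.6% to 37.5% of probe sets called present and white arrays 45.2% to 45.8%. The actin 3′/5′ signal ratio, which rises as RNA is degraded, lay between 1.19 and 1.73 on 5 arrays and was 2.24 on brown replicate 2. The median difference of all tested genes was -0.04 after quantile normalisation, -0.50 with the scaling the files were deposited with and -0.48 when arrays were scaled to spike-in controls, so small differences depend on the scaling. The p-values measure the spread between these samples.

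Of the 10 members 9 were tested, Hk3 being the exception. Slc2a4, Slc2a5 and Hk2 were higher in brown, Slc2a1, Slc2a3 and Slc2a10 were higher in white, and Slc2a8, Slc2a12 and Hk1 were not called. The 6 called members compare with 60% of all 10264 tested genes called, 27.7% of them higher in brown and 32.2% higher in white, against 33.3% of the tested members in each direction. The median difference of the tested members was -0.11. Brown and white arrays were fully apart for 7 of these 9 genes, and for 67.3% of all tested genes. As a set the members were therefore called about as often as genes at large, and what they show is which form goes with which tissue. In whole tissue, fewer cells of a type and less RNA per cell cannot be told apart.

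**Figure D1:**
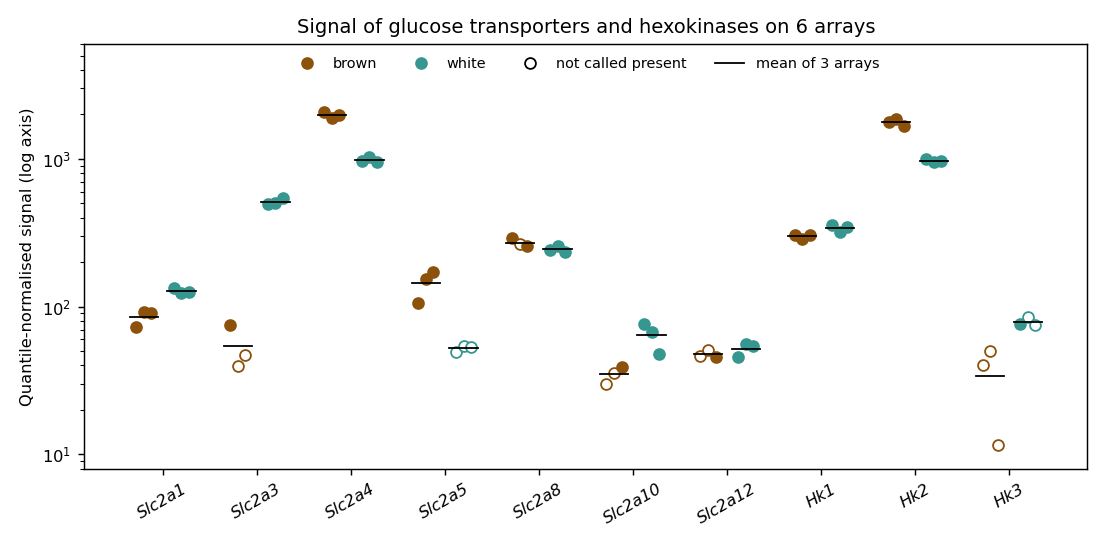
Quantile-normalised signal (log axis) of the 10 members on 3 brown and 3 white arrays; filled points were called present, open points were marginal or absent, and lines are means of 3 arrays. Slc2a4 and Hk2 were present on every array and higher in brown, and Slc2a3 is near 54 in brown and 514 in white; Hk3, not tested, is drawn from the probe set that had 1 present call.

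Slc2a4, the insulin-responsive transporter, was present on all 6 arrays and higher in brown. Its signals were 2078, 1899 and 1994 on the brown arrays and 971, 1025 and 954 on the white arrays. The lowest brown array was thus well above the highest white array. The difference was 1.02 (SE 0.06, limma adjusted p = 6.05e-07), a 2.02-fold higher signal in brown. Its other probe set read 1667, 1034 and 1604 in brown and 815, 706 and 571 in white. That probe set also gave a difference of 1.02 (SE 0.18, limma adjusted p = 0.000952) without overlap, but its brown replicate 2 lay far below the other brown arrays. This is the array with the actin ratio of 2.24, and the part of RNA quality in that low value was not tested.

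Hk2, the hexokinase typical of muscle and fat, which can sit on the outer mitochondrial membrane, was also higher in brown. Its 1 probe set read 1766, 1875 and 1684 in brown and 993, 950 and 969 in white. The tissues did not overlap, and the white arrays lay close together. The difference was 0.87 (SE 0.07, limma adjusted p = 2.03e-06), or 1.83-fold. With the deposited scaling the difference of Hk2 was 0.59 and that of Slc2a4 was 0.76, and both were still called. In the deposited table, with its tissues exchanged and without quantile normalisation, neither was called (Hk2 -0.051, limma adjusted p = 0.733; Slc2a4 0.070, 0.674), while the median of all tested genes stood at -0.41. After quantile normalisation of that table both were called higher in brown. Hk2 is the member with GC boxes, ACGTG and CCAAT all in the window shown above.

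Skeletal muscle also uses Slc2a4 and Hk2. Of 11 muscle markers, 7 had no present call on any array, Tnnt3 and Mylpf among them, and 9 had none on the white arrays. The myosin heavy chain gene Myh1 read 26.4, 35.1 and 9.76 in brown and 14.1, 18.4 and 18.2 in white, and Myh4 30.5, 34.6 and 1.83 in brown and 10.4, 8.35 and 6.15 in white. Both were called present on brown replicates 1 and 2 and absent on brown replicate 3 and every white array. Acta1, the 1 tested marker, went the other way. It read 97.7, 145 and 2.16 in brown, with 1 present call, and 153, 224 and 164 in white, all called present. Its difference was -2.51 and was not called (limma adjusted p = 0.122). Mylpf read 43.3, 92.9 and 25.9 in brown and 3.78, 2.58 and 3.62 in white, all called absent. Myh2 read 38.3, 31.0 and 9.03 in brown and 4.06, 4.74 and 4.31 in white, also all absent. Pygm, Myog and Actn3, never present either, had lower means in brown. The summed signal of the list was 247 to 635 in brown and 391 to 437 in white, with 1 marker tested and 0 called. Acta1 makes up much of the white sum, so overlapping sums do not mean similar muscle signal. On brown replicate 3, Slc2a4 read 1994 and Hk2 read 1684. The part of muscle in the Slc2a4 and Hk2 values was not tested on any array.

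Slc2a5, which carries fructose rather than glucose, was the third member higher in brown. It read 105, 154 and 171 on the brown arrays, all called present, and 49.7, 54.4 and 53.4 on the white arrays, all called absent. Every brown array was above every white array, with brown replicate 1 the lowest of its tissue. Slc2a5 passed the detection filter through the brown arrays alone. After quantile normalisation the signal was an estimated 2.68-fold higher in brown (difference 1.42, SE 0.21, 95% interval 0.96 to 1.89, limma adjusted p = 0.000246). No white array had a present call, so the white level is not distinguished from background. The fold holds for that scaling alone. With 64 units added to every signal the difference was 0.82. Scaling to the spike-in controls gave 0.93 and the deposited scaling 0.92, and limma called Slc2a5 under each.

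Slc2a3, the high-affinity transporter of neurons and white blood cells, had the largest difference among the 9 tested members. It read 74.8, 39.6 and 47.2 in brown, where replicate 1 was called present, replicate 2 marginal and replicate 3 absent, and 494, 504 and 546 in white. Its signal was 9.90-fold higher in white (difference -3.31, SE 0.21, limma adjusted p = 6.9e-07). A further probe set was absent on all brown arrays (49.1, 14.9 and 12.6) and present on all white arrays (281, 197 and 230). It was an estimated 11.1-fold higher in white after quantile normalisation (limma adjusted p = 9.83e-05). This probe set passed the detection filter through the white arrays alone, so its p-value is not separate support. The remaining 2 probe sets of Slc2a3 were absent on all 6 arrays and were not tested. Both tested probe sets are of kinds that can bind related transcripts (names ending in _s_at and _x_at).

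Markers of macrophages moved the same way as Slc2a3. All 11 macrophage markers are on the array, 10 of 11 were higher in white and 0 higher in brown, and each had a present call on at least 1 array. Their summed signal ranged from 2811 to 3332 on the brown arrays and from 18920 to 19720 on the white arrays. Lyz2, the lysozyme of myeloid cells, had 630 ± 30.6 in brown and 5733 ± 47.6 in white, and the complement gene C1qc 188 ± 7.77 and 2294 ± 225 (SD, n = 3). The part of macrophages in the Slc2a3 result was not tested. Of 8 neutrophil and monocyte markers on the array, 4 had no present call (Mpo, Csf3r, Cxcr2 and Camp), Ngp was higher in brown and Itgam in white, with summed signals of 374 to 555 in brown and 334 to 394 in white.

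Slc2a1, the transporter for basal glucose uptake in many cell types and a marker of blood vessels in brain, was higher in white. It read 73.4, 91.8 and 90.0 in brown and 134, 124 and 126 in white, present on all 6 arrays. The tissues did not overlap. The difference was -0.59 (SE 0.16, limma adjusted p = 0.00923), or 1.51-fold higher in white, and -1.14 with the deposited scaling. The next probe set gave -0.57 (limma adjusted p = 0.033), and the dimmest of the 3 gave -0.38 and was not called (limma adjusted p = 0.116), present on 1 brown and 3 white arrays. Of 9 endothelial markers, 6 were higher in white and 0 in brown, with summed signals of 2947 to 3205 in brown and 4484 to 4574 in white. Cdh5, the cadherin of vessel walls, had a difference of -1.06, whereas Kdr, the main receptor for vascular endothelial growth factor, had 0.04 (limma adjusted p = 0.774). The part of endothelial cells and macrophages in the Slc2a1 result was not tested.

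Slc2a10, which encodes GLUT10, found mainly in membranes inside the cell, was dim. It read 29.8, 35.3 and 39.2 in brown, with only replicate 3 called present, and 76.4, 67.3 and 47.8 in white, all called present. The highest brown array was close below the lowest white array. The difference was -0.86 (SE 0.26, limma adjusted p = 0.0188), 1.81-fold towards white. This call did not hold without white replicate 1 (-0.71, limma adjusted p = 0.0889), without white replicate 2 (-0.81, 0.0707) or without the detection filter (0.0596). Its other probe set read 3.77, 1.45 and 0.548 in brown, all absent, and 38.3, 18.9 and 11.6 in white, with 2 present calls, and was not tested.

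**Figure D2:**
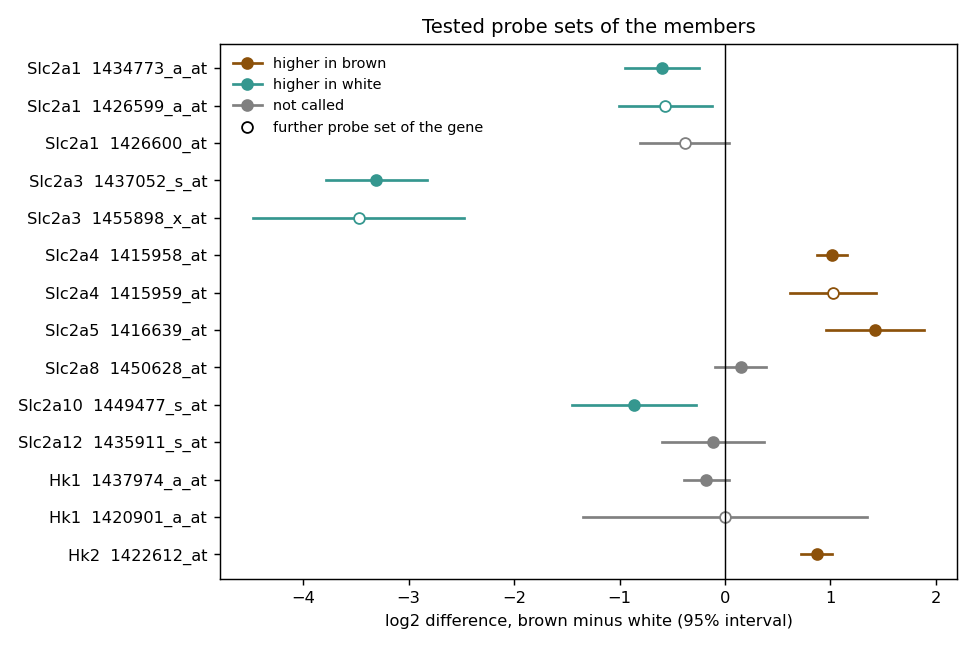
Log2 difference (brown minus white, x axis) with 95% interval from limma for the 14 tested probe sets of 9 members; filled points mark the probe set that stands for the gene, open points its other probe sets, and colours the call. The probe sets of Slc2a4 agree at 1.02, those of Slc2a3 lie at -3.31 and -3.48, and the dim probe set of Hk1 spans 0 widely.

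Hk1, the hexokinase found in most cells, was present on all 6 arrays and was not called. It read 308, 288 and 306 in brown and 356, 319 and 345 in white. The white arrays lay above the brown arrays without overlap, but the gap was small. The difference was -0.18 (SE 0.10, 95% interval -0.39 to 0.04, limma adjusted p = 0.15). It was -0.67 with the deposited scaling (limma adjusted p = 0.000195) and -0.65 with spike-in scaling (0.00233), and was called higher in white under both. A dimmer Hk1 probe set gave 0.003, with brown signals of 92.8, 14.3 and 61.5 that spread more widely than those of white (31.8, 42.7 and 59.8).

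Slc2a8, which encodes GLUT8, a transporter kept mainly inside the cell, was not called either. Its signals were 292, 265 and 258 in brown and 244, 259 and 233 in white, so the tissues overlapped. The difference was 0.15 (95% interval -0.09 to 0.39, limma adjusted p = 0.266). It turned to -0.36 with the deposited scaling, where it was called higher in white (limma adjusted p = 0.0115), and to -0.35 with spike-in scaling (0.0901). Slc2a12, which encodes GLUT12, read 46.7, 51.0 and 45.9 in brown and 45.6, 56.1 and 53.8 in white. These ranges overlapped, with a difference of -0.11 (95% interval -0.60 to 0.37, limma adjusted p = 0.69), and the deposited scaling gave -0.57 and a call (0.0429). Its other probe set was absent on all arrays.

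Hk3, the hexokinase known from white blood cells, had too few present calls to be tested. The first of its probe sets read 40.3, 50.04 and 11.5 in brown, all absent, and 76.0, 84.6 and 75.1 in white, with a present call on white replicate 1 alone. The other, of the cross-hybridising kind, read 56.3, 24.3 and 49.6 in brown and 57.6, 106 and 98.7 in white and was absent throughout. Both lay higher in white without overlap, but at levels the software did not distinguish from background. In the authors' deposited table the first probe set stood at 350 to 384 in the columns named brown and 438 to 497 in those named white. The tissues of that table run opposite to the array files, so its difference for this probe set, turned to brown minus white, was 0.34 as deposited and 0.74 after quantile normalisation of the table, against -1.46 in the quantile-normalised array files. For the cross-hybridising probe set the table gave -0.93 as deposited and -0.82 after quantile normalisation, and the array files gave -1.05. The macrophage markers given above moved the same way as the array values of Hk3, and their part was not tested.

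**Figure D3:**
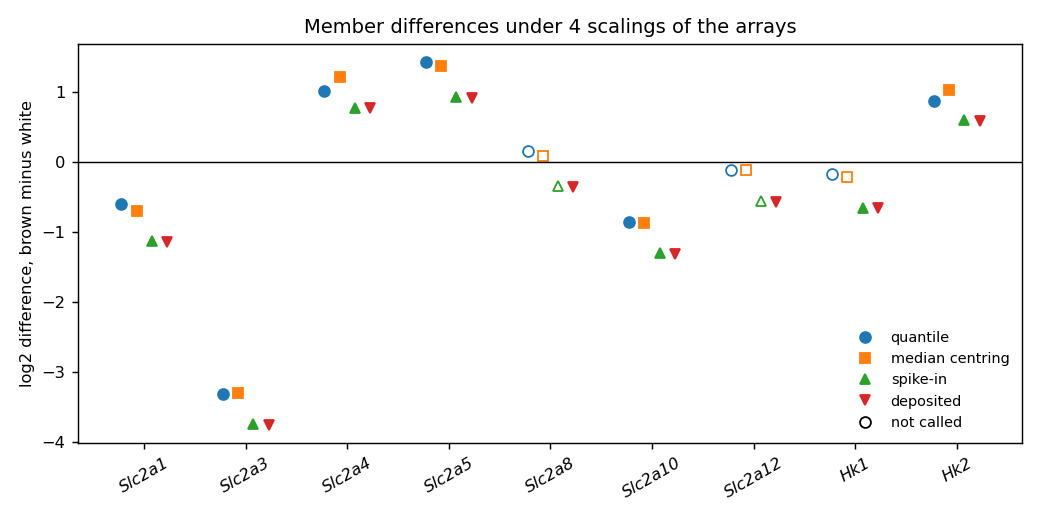
Log2 difference (brown minus white, y axis) of the 9 tested members under quantile normalisation, median centring, spike-in scaling and the deposited scaling; filled points were called by limma. Slc2a4, Slc2a5 and Hk2 stay above 0 and Slc2a1, Slc2a3 and Slc2a10 below 0 under all 4, while Slc2a8 lies on both sides and Hk1 is called under 2 of them.

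Differences between members on the same array do not depend on the array's scaling factor, and 3 pairs were compared. Quantile normalisation, used for the values here, is not a single factor and does change them. With the deposited scaling the shift was 1.90 for Slc2a4 minus Slc2a1 and 1.25 for Hk2 minus Hk1. Slc2a4 minus Slc2a1 was 4.82, 4.37 and 4.47 on the brown arrays and 2.86, 3.05 and 2.92 on the white arrays. The balance of the insulin-responsive over the basal transporter was thus shifted towards brown by 1.61 on the log2 scale, or 3.06-fold, without overlap (two-sided exact permutation p = 0.1, adjusted 0.15). Hk2 minus Hk1 was 2.52, 2.70 and 2.46 in brown and 1.48, 1.58 and 1.49 in white. This balance was shifted by 1.05, or 2.07-fold, again without overlap (two-sided exact permutation p = 0.1, adjusted 0.15). Hk2 minus Slc2a4 was -0.23, -0.02 and -0.24 in brown and 0.03, -0.11 and 0.02 in white. These ranges overlapped, and the shift was -0.15 (two-sided exact permutation p = 0.2). With 3 arrays against 3 the smallest possible p is 0.1. Slc2a4 and Slc2a1 each lay apart between the tissues in opposite directions, as did Hk2 and Hk1. The lack of overlap in these pairs and their permutation p therefore follow from the single members and are not separate support. The values show unequal change between tissues and not the relative amounts of the transcripts.

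**Figure D4:**
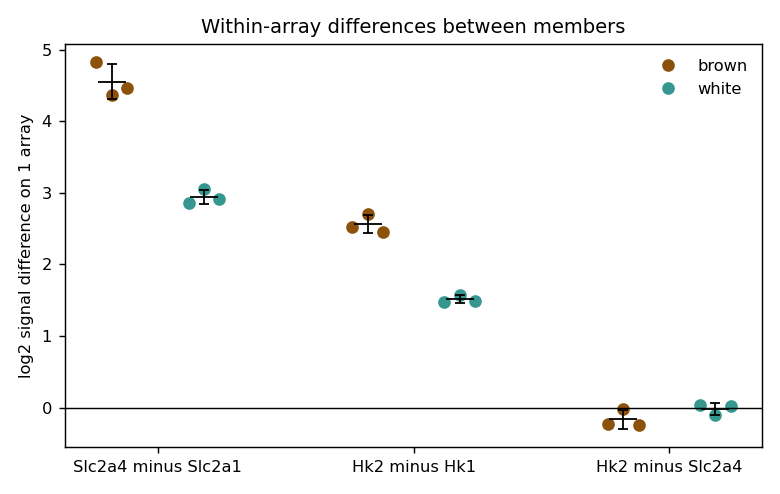
Difference of the log2 signals of 2 members on each array (y axis) for 3 pairs, with points for single arrays and black marks for mean and SD of 3 arrays. Brown and white arrays are apart for Slc2a4 minus Slc2a1 (means 4.55 and 2.94) and Hk2 minus Hk1 (2.56 and 1.52), and overlap for Hk2 minus Slc2a4.

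Over the 6 arrays and 10264 genes, the genes with the most similar centred signals to Slc2a4 were Cab39, Coa6 and Mapkapk3, at Euclidean distances of 0.07, 0.08 and 0.08 log2 units and differences of 1.01, 1.06 and 0.99. Those nearest to Hk2 were Acaca, Pigo and Cox4i1, at distances of 0.07, 0.09 and 0.09 and differences of 0.85, 0.88 and 0.92. These distances are small by selection, as only the nearest of 10264 genes were taken. With 60% of tested genes called between the tissues, close neighbours were likely for any called member.

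Genes for the insulin-stimulated traffic of GLUT4 vesicles were called in both directions. Of 31 tested, 7 gave a call towards brown, 9 a call towards white and 15 no call, with a median difference of -0.07, beside 27.7% and 32.2% of all tested genes called towards brown and white. Rala, a small GTPase of vesicle docking, had 560 ± 29.2 in brown and 200 ± 4.46 in white (SD, n = 3), a difference of 1.48. The exocyst subunit gene Exoc3 had a difference of 1.04. Ubxn6, counted in this list without a check of its part in GLUT4 traffic, had 0.91. Akt2, the insulin-activated kinase upstream of GLUT4, was higher in brown by 0.50. The vesicle cargo receptor Lrp1 had 852 ± 42.4 in brown and 2301 ± 134 in white (SD, n = 3; difference -1.43), and Stxbp3, a regulator of membrane fusion, -1.23 and the motor protein gene Myo1c -1.12 were also higher in white. Sort1, the sorting receptor of GLUT4 vesicles, was higher in white by a difference of -0.96. Tbc1d4, the Akt substrate that holds GLUT4 inside the cell, had 0.02 (limma adjusted p = 0.868), Rab10 -0.12 (0.146) and Vamp3 0.01 (0.928). Akt2, Sort1 and Tbc1d4 were chosen after their values were seen. With the deposited scaling 4 of these genes were called towards brown and 21 towards white, and with spike-in scaling 3 and 18. The 3 towards brown with spike-in scaling were Rala, Exoc3 and Ubxn6, so the Akt2 call was lost there.

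Of the other sugar transporters and hexokinases, 15 of 17 are on the array and 6 were tested. Of these, 0 had a call towards brown and 3 a call towards white (median difference -0.66). The shares over all tested genes were 27.7% and 32.2%. Slc2a13, the proton-coupled inositol transporter of the same family, was absent on all brown arrays. Its signal was an estimated 6.50-fold higher in white (25.5 ± 4.23 against 164 ± 7.20, SD, n = 3). With 64 units added to every signal its difference was -1.35. The sodium-coupled inositol transporter Slc5a3 had 335 ± 48.3 and 1310 ± 98.2 (SD, n = 3; difference -1.98). Slc45a3 was an estimated 2.05-fold higher in white, a call lost without white replicate 2 (limma adjusted p = 0.0626) or white replicate 3 (0.0703). Its difference was -0.42 with 64 units added. Slc50a1, a sugar efflux transporter, gave -0.29 (limma adjusted p = 0.0866) and Slc45a4 -0.27 (0.0604). With the deposited scaling both were called higher in white (-0.73, limma adjusted p = 0.000741, and -0.78, 0.000117), which makes 5 genes towards white there and with spike-in scaling, against 1 where present calls were required on all 6 arrays.

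Genes at and beyond the branch points of glucose-6-phosphate went both ways, and G6pdx of this list was not tested. Of 14 tested genes at these branch points, 7 were called towards brown, 4 towards white and 3 had no call (median 0.26). All tested genes had 27.7% called towards brown and 32.2% towards white. Those higher in brown included 5 of the pentose phosphate pathway, which makes NADPH and ribose: Pgls at 1.28, Taldo1 at 1.15, Tkt at 0.80, Rpe at 0.66 and Pgd at 0.44. Tkt, transketolase, reached 12437 ± 316 in brown against 7132 ± 299 in white (SD, n = 3). The genes higher in white included Gfpt1 (-0.79) and Gfpt2 (-1.01), whose enzymes lead sugar into hexosamine synthesis, with Pgm2l1 (-0.80) and H6pd (-0.52), the form of glucose-6-phosphate dehydrogenase in the endoplasmic reticulum. The phosphate-linked transporter Slc37a4 had 0.004 (limma adjusted p = 0.986), and Rpia, a further gene of the pentose phosphate pathway, -0.19 (0.368). With spike-in scaling 4 genes of this list were called towards brown and 6 towards white. Pgls, Taldo1 and Tkt were among these 4, so Rpe and Pgd did not both keep their call. The pentose phosphate grouping was made after the values were seen.

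Among 10 tested genes for fructose, galactose, mannose and amino sugar handling, 6 were called towards brown and 2 towards white (median 0.55). Beside these stand 27.7% and 32.2% of all tested genes. Pmm1, a phosphomannomutase, had a difference of 1.498, Galt, which acts on galactose-1-phosphate, 1.06, and Pmm2 0.82. Khk, which phosphorylates fructose, was higher in brown, as Slc2a5 was, by 0.57 (limma adjusted p = 0.0338), and was picked out after its value was seen. Gnpda2 (-0.63) and Nagk (-0.59), which handle amino sugars, were higher in white. Galk2 had 0.37 (limma adjusted p = 0.0597) and Mpi 0.11 (0.582). With spike-in scaling 3 genes of this list were higher in brown. The Pmm2 call was lost with the deposited scaling (0.40, limma adjusted p = 0.0682) and with spike-in scaling (0.41, 0.0844).

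**Figure D5:**
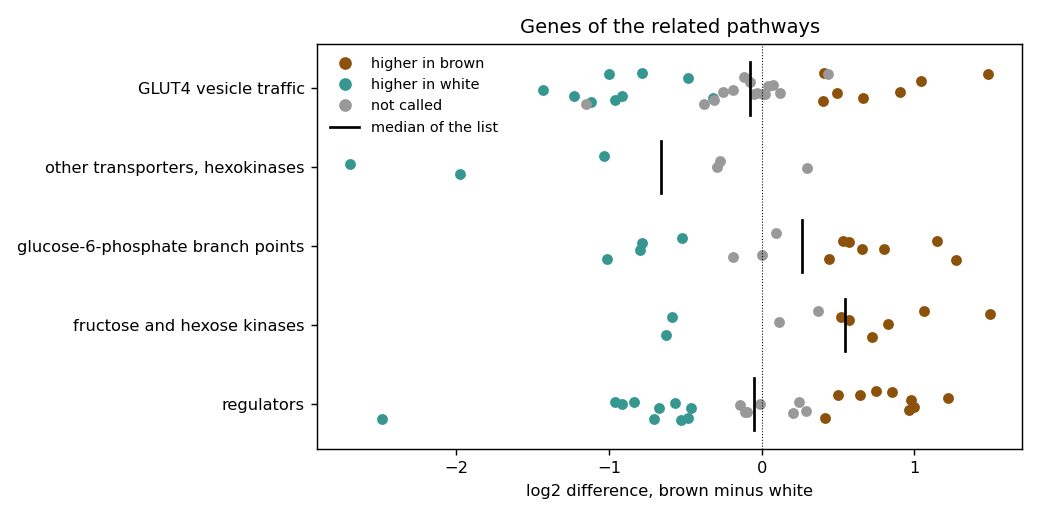
Log2 difference (brown minus white, x axis) of the tested genes in 5 related lists, coloured by call, with black lines at the list medians; vertical scatter within a list has no meaning. Calls go both ways in every list but that of other transporters and hexokinases, where 3 were higher in white and 0 in brown.

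Regulators of glucose transporters and hexokinases also went both ways, with 9 of 26 tested higher in brown, 10 higher in white and a median of -0.05. Of all tested genes, 27.7% were higher in brown and 32.2% higher in white, so these counts are near the general share. Mlxipl, the glucose-sensing transcription factor ChREBP, had 1934 ± 82.3 in brown and 968 ± 36.7 in white (SD, n = 3; difference 0.998), and its partner Mlx was higher in brown by 0.75. Txnip, which restrains glucose uptake through GLUT1 and GLUT4, was higher in white (-0.57). The catalytic subunits of AMP-activated protein kinase were opposite, Prkaa2 at 1.22 and Prkaa1 at -0.96. The mitochondrial channels Vdac1 (0.42), Vdac2 (0.97) and Vdac3 (0.85), of which the first is a known docking site for hexokinases, were higher in brown together with Hk2. Myc was absent on all brown arrays and an estimated 5.62-fold higher in white after quantile normalisation. Pea15a, marginal or absent on the brown arrays and present on all white arrays, had -0.92. With 64 units added to every signal the difference of Myc was -1.06. Epas1 had -0.01 (limma adjusted p = 0.886) and Mef2a 0.20 (0.0753). Mlx, Txnip, Vdac1 and Vdac3 were chosen after their values were seen.

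Markers of other cells bear on how these signals may be read. The 8 brown adipocyte markers were all higher in brown, and their summed signal was 40740 to 42880 there against 396 to 578 in white. Of 8 white adipocyte markers 7 were tested and higher in white (1473 to 1571 against 31900 to 33390). Markers of both adipocyte kinds summed to 49480 to 51090 in brown and 60780 to 62270 in white, with 4 of 7 higher in white. Nerve markers had 2 of 4 tested genes higher in brown and 1 in white, Itga6, with sums of 1311 to 1510 and 2175 to 2944. Of 4 erythroid markers on the array, 2 were tested and 0 called, with sums of 364 to 430 in brown and 278 to 355 in white. None of the 8 markers of epididymis and testis on the array had a present call (125 to 194 in brown and 102 to 123 in white).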

How the data were processed

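Total RNA of 6 samples was labelled with biotin and hybridised to 1-colour Affymetrix arrays. The deposited file of each array holds, per the file headers, a linear signal intensity with a detection call and a detection p-value for every probe set; its software and scaling are not stated. A deposited table of intensity values for the whole series, of unstated scale and centring, runs opposite in tissue and served only as an alternative (column medians 64.3, 62.8 and 63.8 for brown and 56.7, 56.8 and 55.9 for white).

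After 64 control probe sets were left out, the signal of 0 was set to 0.1, and log2 signals were quantile-normalised, because 2% trimmed means differed by 37.3% between arrays. Of 45037 probe sets, 34945 have 1 gene symbol in the platform annotation, 932 several and 9160 none; a probe set shared by Hk1 and other genes was not used. Tests used limma 3.58.1 under R 4.3.3, with moderation trended on mean signal and Benjamini-Hochberg adjustment, checked on simulated data. The number of arrays limits the precision. Where all arrays of the dimmer tissue were absent, a bound on the fold was sought. In it each dimmer array counts at its lowest present signal or at the probe set's own signal, whichever is higher. For the genes given here it equalled the estimated fold, which is therefore an estimate and not a minimum. That fold holds for quantile normalisation alone and takes no account of the spread between arrays. Named list genes are up to 3 called with the largest difference in each direction and up to 2 uncalled with the highest signal; others are marked. Members, lists and tests were chosen with earlier results of these data known. No genome build is named for the files.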

Additional observations from a re-analysis of the deposited data

How the results depend on the processing

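Slc2a1, Slc2a3, Slc2a4, Slc2a5 and Hk2 kept their direction and call under every alternative that tested them on the array files: 4 scalings, an added offset of 64, detection filters, the mean over probe sets and the removal of single arrays. Without any 1 array, the difference of Slc2a1 ranged from -0.66 to -0.49, of Slc2a3 from -3.56 to -3.11, of Slc2a4 from 0.98 to 1.06, of Slc2a5 from 1.29 to 1.64, of Slc2a8 from 0.10 to 0.19, of Slc2a10 from -1.04 to -0.71, of Slc2a12 from -0.20 to -0.05, of Hk1 from -0.23 to -0.14 and of Hk2 from 0.82 to 0.90. The number of members higher in white was then 2 to 3. Tested probe sets were kept fixed in these fits. Over all alternatives on the array files, Slc2a4 minus Slc2a1 ranged from 1.34 to 1.90, Hk2 minus Hk1 from 0.96 to 1.25 and Hk2 minus Slc2a4 from -0.22 to -0.10. The deposited scaling put 6 members higher in white, turned Slc2a8 to -0.36 and made calls of Slc2a12 (-0.57) and Hk1 (-0.67); spike-in scaling also called Hk1 (-0.65). The Slc2a10 call was lost without a detection filter (-0.86, limma adjusted p = 0.0596). The number higher in white was 1 with present calls required on all 6 arrays and 1 without cross-hybridising probe sets, since Slc2a3 and Slc2a10 were then not tested. All tested genes split into 2846 higher in brown and 3310 in white, or 1528 and 5728 with the deposited scaling and 1376 and 5203 with spike-in scaling. Of related genes, Vamp3 (-0.25), Slc37a4 (-0.51) and Mpi (-0.44) turned with the deposited scaling, Slc37a4 (-0.50) with spike-in scaling, Epas1 (0.38) with median centring, and Rab10 (0.20) and Epas1 (0.42) with the mean over probe sets.

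In the deposited table, quantile-normalised and by its own column names, Slc2a1 (0.79), Slc2a3 (3.58), Slc2a4 (-0.66), Slc2a5 (-0.94), Slc2a10 (1.44), Hk1 (0.21) and Hk2 (-0.62) and the pairs Slc2a4 minus Slc2a1 (-1.45), Hk2 minus Hk1 (-0.83) and Hk2 minus Slc2a4 (0.042) turned, as its tissues are opposite. With its tissues exchanged, an alternative chosen after seeing the data, all 6 called members kept their direction and call after quantile normalisation, Hk1 was called higher in white (-0.21, limma adjusted p = 0.045) and Exoc3 turned (-0.10); Myc (-0.05, 0.692), Gfpt2 (-0.27, 0.144) and Slc45a3 (-0.46, 0.141) were not called. Without that normalisation, also chosen after seeing the data, Slc2a4 was not called (0.070), Hk2 (-0.051, not called) and Slc2a8 (-0.48) turned, Hk1 was called (-0.58), and 1 member was higher in brown and 5 in white; Exoc3 (-0.57), Vamp3 (-0.72) and Mef2a (-0.49) turned too. Same-numbered arrays of the tissues are not stated to share a mouse, and their deviations correlated at 0.02, -0.01 and -0.05. With a replicate block, 3 members had a call towards brown and 3 towards white (Slc2a10 limma adjusted p = 0.0394), and 2747 and 3219 of all genes.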
